A study of Rattus norvegicus with 36 samples.

Results

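Livers of rats given the 2 highest doses of a flame retardant were compared with livers of rats given its 3 lowest doses. The 12 samples titled 54.1 or 541 mg/kg formed the high-dose side and the 18 samples titled 0.05, 0.54 or 5.41 mg/kg the low-dose side, so 30 of the 36 samples of the series entered the comparison. All 31042 probe sets that are not array controls were tested. The 6 vehicle samples were no part of the contrast and served as the background of the series.

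The compound was hexachlorocyclopentadienyl-dibromocyclooctane (HCDBCO), which carries chlorine and bromine. Male Harlan Sprague Dawley rats, 7 weeks old at the start, were dosed by oral gavage on 5 days in a row and killed 1 day after the last dose. Every group, vehicle included, received corn oil at 5 ml per kg of body weight, and each of the 6 groups, vehicle and the 5 doses, had 6 samples. RNA of the left liver lobe was hybridised to Affymetrix rat arrays, 1 per sample, and the design text sets each dose against vehicle rather than dose against dose.

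Much of the liver's answer to foreign chemicals runs through the nuclear receptors CAR and PXR, which bind DNA as partners of RXR and switch on cytochrome P450 enzymes, conjugating enzymes and exporters. A second system uses the transcription factor NRF2, which is held in the cytoplasm by KEAP1 until electrophiles or oxidants release it, and which then acts through antioxidant response elements. In rodent liver, genes of the CYP2B and CYP3A subfamilies are the classic readouts of CAR and PXR.

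The array medians lay between 5.06 and 5.17 on the log2 scale. The array of 54.1 mg/kg replicate 5 stood apart, with a lower quartile of 3.80 where the 35 others had 3.62 to 3.72, and an upper quartile of 6.95 where the others had 7.03 to 7.14. Beta-actin's 3′ signal exceeded its 5′ signal, a gap that grows as RNA breaks down, by 1.16 ± 0.0949 (SD, n = 12) in the high-dose and 1.13 ± 0.0787 (n = 18) in the low-dose samples on the log2 scale (permutation p = 0.252, two-sided, 100000 resamples). Vehicle had 1.13 ± 0.0758 (n = 6). The 14 measured hepatocyte markers had a mean level with a median of 13.16 over the low-dose and 13.11 over the high-dose samples, and none of the 14 lay below the array median.

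Among the probe sets that passed the test, genes that process or export foreign chemicals showed the largest rises at the high doses, and the falls were smaller and fewer. In the limma fit with 1 mean per dose, 73 of the 31042 probe sets (0.235%) passed an FDR of 5%, of which 60 (0.193%) were higher and 13 (0.0419%) lower at the high doses. They covered 60 named genes, 48 higher and 12 lower. Another 7 had no listed symbol, and 1 was annotated to both Cyp2b1 and Cyp2b2. The rises had a median log2 difference of 0.29 (range 0.15 to 1.62) and the falls one of -0.24 (range -0.52 to -0.14), while the median over all probe sets was 0.0019. Only 6 rises and no fall reached 1.5-fold, and 4 rises reached 2-fold. In all, 2633 probe sets (8.48%) had an unadjusted p below 0.05.

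The count rested in part on single samples. With 1 sample left out it ran from 28 to 87. Among the 54.1 mg/kg samples, dropping replicate 2, 3 or 4 gave 42, 28 or 36. Among those at 541 mg/kg, dropping replicate 1, 3 or 4 gave 33, 43 or 36. It was 45 when 0.54 mg/kg replicate 2 was dropped and 46 when 0.05 mg/kg replicate 6 was. Leaving out 54.1 mg/kg replicate 5, the array that stood apart, gave 87. In all 30 such fits, 25 of the 73 passed, 24 higher and 1 lower (Gnmt).

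**Figure D1:**
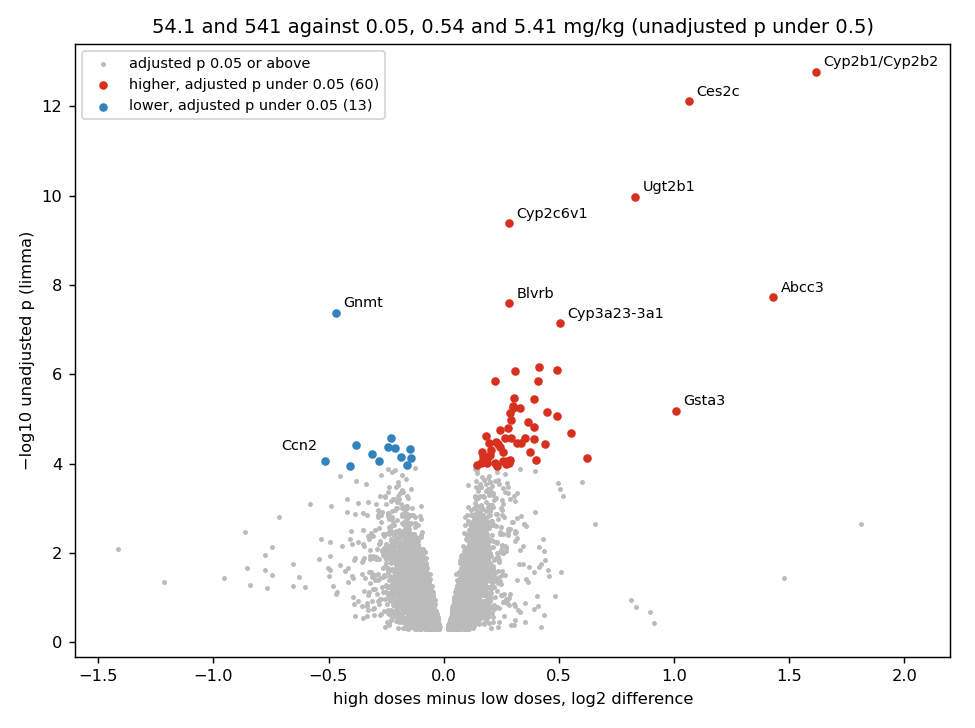
Each point is 1 probe set with an unadjusted p under 0.5, placed by its log2 difference, high doses minus low doses (x), and by −log10 of limma's unadjusted p (y). Red points (60) were higher and blue points (13) lower at an adjusted p under 0.05, and grey points did not pass; the 6 rises of at least 1.5-fold are the red points farthest to the right.

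The probe set annotated to Cyp2b1 and Cyp2b2, the CYP2B enzymes that phenobarbital induces, showed the largest rise among the probe sets that passed. Its log2 values were 9.68, 11.19 and 11.56 (lowest, median and highest) in the 18 low-dose samples, 11.98, 12.17 and 12.38 at 54.1 mg/kg, and 12.52, 13.24 and 13.47 at 541 mg/kg. All 12 high-dose samples lay above all 18 low-dose samples, and the 6 samples at 541 mg/kg lay above the 6 at 54.1 mg/kg. The difference was 1.62 ± 0.13 (limma's standard error, as for every ± beside a difference), a 3.07-fold rise (adjusted p = 5.27e-09). The vehicle samples, at 10.33 to 11.75, overlapped the low-dose samples and not the high-dose ones. Since the annotation gives this probe set to both genes, it is named for neither, and near-identical members of the CYP, UGT and GST families may share signal on such arrays, which was not tested.

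Ces2c, a carboxylesterase that hydrolyses ester drugs, had values of 6.75, 7.40 and 7.67 at the low doses, 7.56, 8.01 and 8.52 at 54.1 mg/kg and 8.50, 8.70 and 9.35 at 541 mg/kg. The groups met at 1 sample, the lowest at 54.1 mg/kg, which lay below the highest low-dose sample, and the remaining 11 high-dose samples lay above all 18. The rise was 1.07 ± 0.09, or 2.09-fold (limma adjusted p = 1.22e-08).

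Abcc3, the basolateral exporter of glucuronides and bile acids, had 4.70, 5.32 and 6.38 at the low doses, 6.00, 6.46 and 6.79 at 54.1 mg/kg and 5.79, 7.06 and 8.04 at 541 mg/kg. Of the 12 high-dose samples 9 exceeded every low-dose sample, and 541 mg/kg replicate 2, at 5.79, lay inside the low-dose range. The rise was 1.43 ± 0.19, or 2.70-fold (limma adjusted p = 1.17e-04). The low-dose mean was 0.40 above vehicle (limma unadjusted p = 0.0840), and every vehicle sample lay below every high-dose sample.

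Ugt2b1, a glucuronosyltransferase, separated the sides completely, with 11.17, 12.26 and 12.46 at the low doses, 12.75, 12.97 and 13.07 at 54.1 mg/kg and 12.98, 13.07 and 13.27 at 541 mg/kg. Its rise was 0.83 ± 0.09, or 1.78-fold (limma adjusted p = 1.10e-06). Cyp2c6v1, a CYP2C enzyme, also separated them: its low-dose values ended at 13.73 and its high-dose values began at 13.76. The rise of Cyp2c6v1 was small, at 0.28 ± 0.03 or 1.22-fold, beside SDs of 0.0808 over the low-dose and 0.0584 over the high-dose samples (limma adjusted p = 3.26e-06). These 2 genes and the Cyp2b probe set were the only 3 of all 31042 probe sets (0.00966%) whose 12 high-dose samples lay above all 18 low-dose samples, and no probe set lay below throughout.

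**Figure D2:**
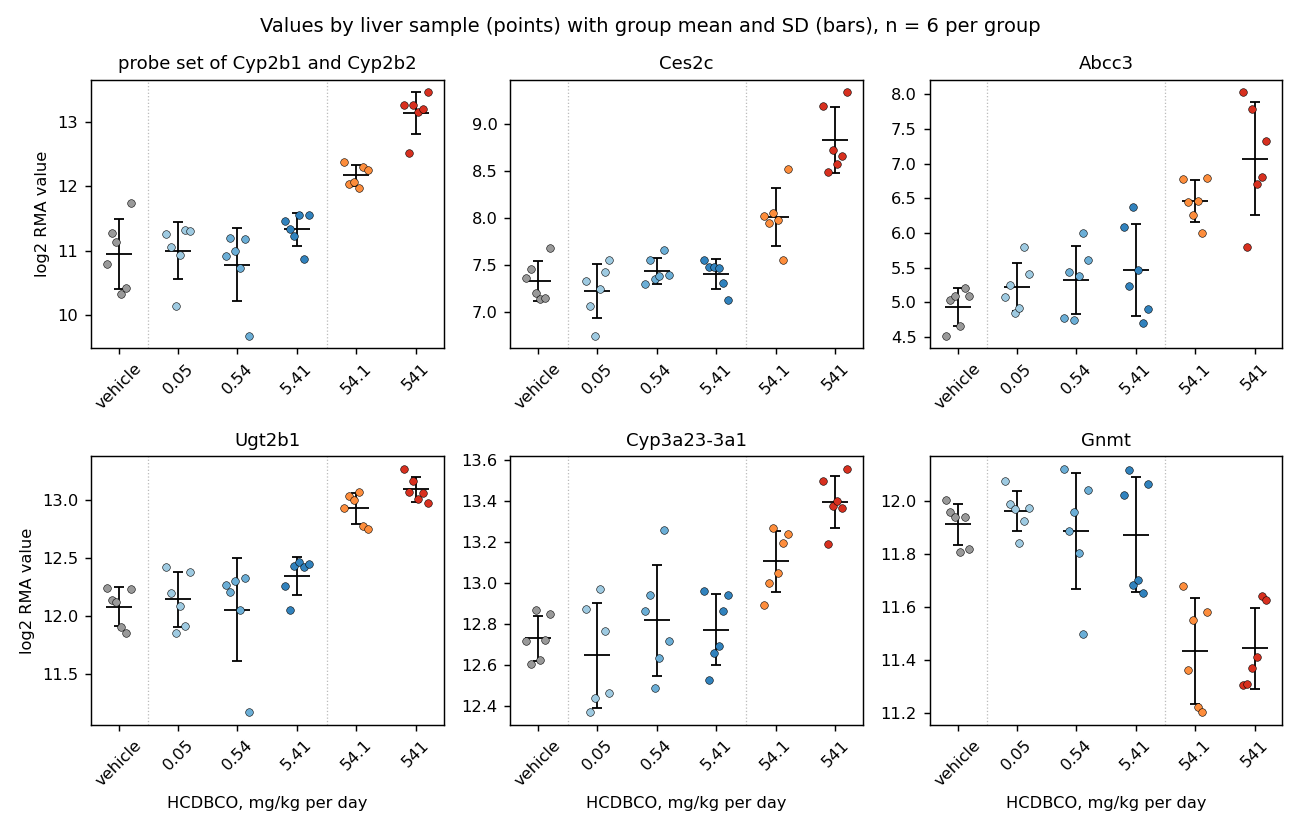
Log2 values of 6 probe sets in each liver sample (points), by group (x), with the group mean and SD (bars, n = 6 per group). For the Cyp2b probe set and Ugt2b1 all 12 high-dose samples lie above the 18 low-dose samples; for Abcc3 and Gnmt the sides overlap.

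Cyp3a23-3a1, the main PXR-inducible P450 of rat liver, had 12.37, 12.74 and 13.26 at the low doses, 12.89, 13.12 and 13.27 at 54.1 mg/kg and 13.19, 13.38 and 13.56 at 541 mg/kg. All 12 high-dose samples were above the low-dose mean, and 6 of them, 5 at 541 mg/kg, were above every low-dose sample. The rise was 0.51 ± 0.07, or 1.42-fold (limma adjusted p = 2.82e-04).

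The target genes of CAR and PXR as a set lay above the other genes. The set was chosen with earlier results of these data known, so the values below describe it and do not test it. Past the FDR, 10 of the 25 measured targets rose and none fell, where 0.295% of the 14217 genes measured rose and 0.0774% fell. The members' median difference was 0.25, against 0.0029 over all genes, and 22 of the 25 were above 0, against 51.9% of all genes. The members that rose were Ces2c, Ugt2b1, Cyp2c6v1, Abcc3, Cyp3a23-3a1, Gsta3, Ephx1, Aldh1a1, Abcb1a and Cyp2b21. The number that rose was 9 to 11 with any 1 sample left out, and 10 without 54.1 mg/kg replicate 5.

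Ephx1, the microsomal epoxide hydrolase, rose by 0.39 ± 0.07, from 12.01, 12.58 and 12.82 at the low doses to 12.68, 12.90 and 13.25 at the high doses (limma adjusted p = 0.00743). Here 9 of the 12 high-dose samples exceeded every low-dose sample. Aldh1a1, a retinaldehyde dehydrogenase, rose by 0.49 ± 0.09 (adjusted p = 0.0123), with 541 mg/kg replicate 2 at 11.88 below the 5 others of its group, which lay at 12.32 to 12.58. Abcb1a, the drug exporter P-glycoprotein, was measured by 2 probe sets that both rose (0.35 ± 0.07 and 0.39 ± 0.08, adjusted p = 0.0251 and 0.0254); its call was lost without 54.1 mg/kg replicate 4 or 541 mg/kg replicate 1. Cyp2b21 rose by 0.24 ± 0.05 (adjusted p = 0.0202) on a dim probe set with a mean of 3.13 at the low doses.

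Several members of that set did not pass; those given here, like others below without a call, were picked after their values were seen. Sult2a6, a sulfotransferase, differed by 0.52 ± 0.13 (limma adjusted p = 0.113), Por, the electron donor of all microsomal P450s, by 0.25 (adjusted p = 0.156), Akr7a3, an aldehyde reductase, by 0.40 ± 0.11 (adjusted p = 0.179), and Abcc2, the canalicular exporter of conjugates, by 0.24 (adjusted p = 0.201). Cyp3a2 differed by 0.10 ± 0.03 (adjusted p = 0.184). Cyp2b3 and Cyp2c7 had differences of -0.10 and -0.01.

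The promoters of 3 genes show the letters these regulators are known to read. They come from the RefSeq promoter table (assembly GRCr8), which held 52 of the 60 named genes that passed, and each is the 250 bases before the annotated start, on the gene's strand. Capitals mark matches, on either strand, to a direct repeat of the half-site AGNTCA with 3 bases between its copies (DR3, a type that PXR can bind), to the half-site AGGTCA, which can lie inside that repeat, and to the core of the antioxidant response element (TGACNNNGC). Cyp3a23-3a1 is shown for the repeat, and Me1 and Pir, both on the set of NRF2 targets, for the core.
Cyp3a23-3a1, chr12:14398804-14399053, minus strand: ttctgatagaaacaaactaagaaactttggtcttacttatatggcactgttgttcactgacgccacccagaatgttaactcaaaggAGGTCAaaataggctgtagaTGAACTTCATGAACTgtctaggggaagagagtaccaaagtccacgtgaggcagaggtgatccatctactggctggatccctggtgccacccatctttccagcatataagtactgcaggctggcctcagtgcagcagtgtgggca
Me1, chr8:96540245-96540494, minus strand: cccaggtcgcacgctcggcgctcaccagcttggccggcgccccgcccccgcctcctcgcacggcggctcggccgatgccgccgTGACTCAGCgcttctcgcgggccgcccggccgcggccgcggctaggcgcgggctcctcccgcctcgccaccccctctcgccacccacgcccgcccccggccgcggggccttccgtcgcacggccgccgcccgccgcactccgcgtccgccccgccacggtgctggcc
Pir, chrX:33851050-33851299, minus strand: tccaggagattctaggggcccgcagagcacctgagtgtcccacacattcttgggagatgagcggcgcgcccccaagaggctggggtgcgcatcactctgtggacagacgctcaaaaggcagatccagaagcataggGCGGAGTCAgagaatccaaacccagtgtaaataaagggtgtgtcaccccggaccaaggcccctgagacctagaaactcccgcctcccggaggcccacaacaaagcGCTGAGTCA

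The direct repeat in Cyp3a23-3a1 begins at position -144 from the start and reads on the opposite strand, with a separate half-site at -164. The cores lie at -167 in Me1, and at -114 and -9 on the opposite strand in Pir. Over windows of 250 bases before to 50 bases after the start, that repeat was in 0.0777% of all 33469 promoters and in 1 of the 40 promoters of genes that rose. Other spacings known for these receptors, the direct repeat DR4 and the everted repeat ER6, were searched too and matched none of the 40 (0.0568% and 0.0388% of all promoters). The antioxidant core was in 12.1% of all promoters, in 10 of the 40 that rose and in 1 of the 12 that fell (Gnmt). Besides Me1 and Pir, the genes that rose with a core were App, Dusp3, Gsta1, Gsta3, Htatip2, Manba, Psmd1 and Rcan2. The half-site was in 16.2% of all promoters and in 7 of the 40. A match is a run of letters, and no binding was measured.

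NRF2 targets, a set also chosen with earlier results of these data known, lay above the other genes too, which describes the set and does not test it. Of 27 measured members 6 were higher and none lower, where 0.295% of all genes rose and 0.0774% fell. Their median difference was 0.15, against 0.0029 over all genes. Gsta3 and Ephx1 are members of both sets, and the others that rose were Pir, Me1, Tkt and Aox1. Gsta3, an alpha-class glutathione transferase, had 7.08, 7.75 and 8.87 at the low doses, 8.35, 8.76 and 9.02 at 54.1 mg/kg and 8.16, 9.06 and 9.50 at 541 mg/kg. Its sides overlapped, with 7 low-dose samples above the lowest high-dose sample, and it rose by 1.01 ± 0.19, or 2.01-fold (limma adjusted p = 0.0107). Low-dose samples varied widely in Gsta3 (SD 0.63).

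Pir, an iron-binding nuclear protein, rose from 6.63, 7.12 and 7.42 at the low doses to 7.09, 7.49 and 7.98 at the high doses, a difference of 0.41 ± 0.07 (limma adjusted p = 0.00233). Me1, the cytosolic malic enzyme that supplies NADPH, rose by 0.33 ± 0.06 on its brightest probe set and by 0.49 ± 0.08 on another (adjusted p = 0.00958 and 0.00233). The brightest Me1 probe set had 8.94, 9.21 and 9.66 at the low and 9.45, 9.597 and 9.75 at the high doses, so 3 low-dose samples lay above the lowest high-dose sample. Tkt, the transketolase of the pentose phosphate pathway, rose by 0.17 ± 0.04 and Aox1, the aldehyde oxidase, by 0.26 ± 0.06 (adjusted p = 0.0433 and 0.0437), each in only 9 of 30 fits with 1 sample left out.

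Nqo1, the quinone reductase often used as the NRF2 readout, was 0.39 ± 0.17 higher and did not pass (limma adjusted p = 0.510). One low-dose sample, 0.05 mg/kg replicate 5, stood at 9.59 where the 5 others of its group had 7.11 to 7.70, and without that sample Nqo1 passed. Gclc and Gsr, which make and regenerate glutathione, differed by 0.23 and 0.26 (adjusted p = 0.120 and 0.143). Txnrd1 differed by 0.08, Hmox1 by -0.12 and Srxn1 by 0.14, none past the FDR. The number of NRF2 targets that rose was 4 to 6 with 1 sample left out, and 6 without 54.1 mg/kg replicate 5.

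Sets of conjugating enzymes and exporters, which share members with the 2 sets above, held a few rises each, where 0.295% of all genes rose and 0.0774% fell. Of 25 genes of glutathione transfer and synthesis, 3 rose and none fell, with a median of 0.13: Gsta3, Mgst2 (0.23 ± 0.05, limma adjusted p = 0.0284) and Gsta1 (0.15 ± 0.03, adjusted p = 0.0465). Without 54.1 mg/kg replicate 5 the count was 2, and it was 1 without 54.1 mg/kg replicate 3 or 4 or 541 mg/kg replicate 1 or 6. Of 14 glucuronosyltransferases and sulfotransferases, Ugt2b1 and Ugt2b10 (0.30 ± 0.05, adjusted p = 0.00958) rose; Ugt2a1, not in that set, rose by 0.29 ± 0.06 (adjusted p = 0.0433). Of 7 carboxylesterases and amidases only Ces2c rose. Of 13 ABC exporters Abcc3 and Abcb1a rose. Apart from members of the CAR and PXR set, no carboxylesterase and no ABC exporter of these sets passed. Abcg5 and Abcg8, which export sterols together, had differences of -0.58 ± 0.16 and -0.71 ± 0.21 that did not pass (adjusted p = 0.143 and 0.192).

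**Figure D3:**
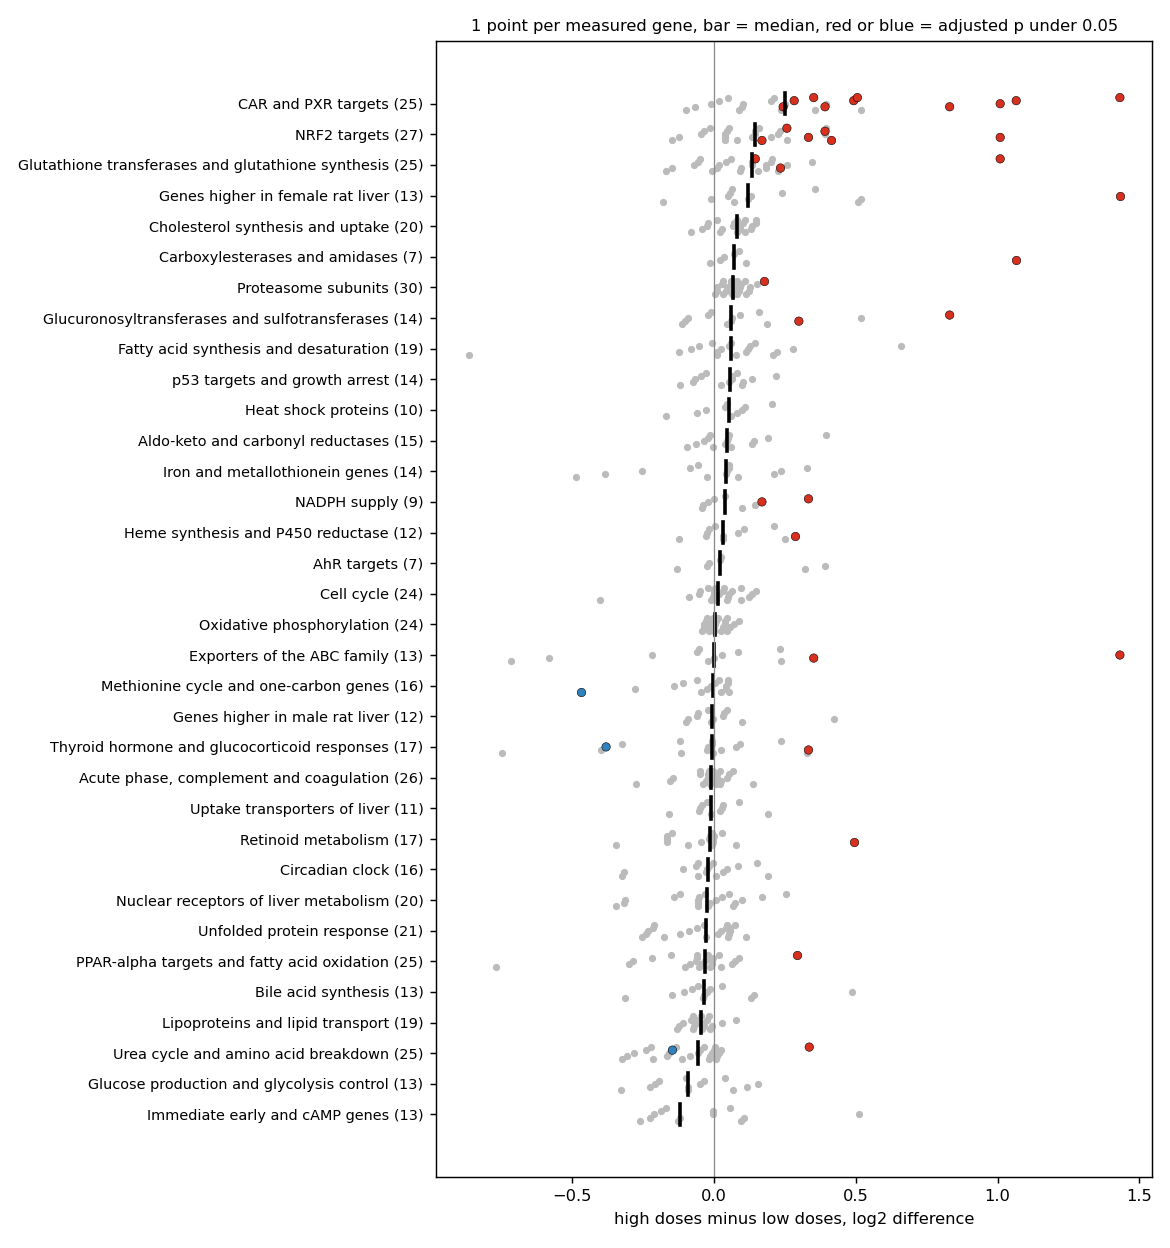
Log2 difference, high doses minus low doses (x), of each measured gene (points) in the 34 sets of response and pathway genes (y, with the number measured); the bar is the set's median, and red or blue marks an adjusted p under 0.05. The CAR and PXR set has the highest median, 0.25.

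Blvrb, biliverdin reductase B, nearly separated the sides. Its values were 9.87, 10.06 and 10.21 at the low and 10.14, 10.33 and 10.61 at the high doses, with 11 of 12 high-dose samples above all 18. The rise was 0.28 ± 0.04, or 1.22-fold (limma adjusted p = 1.34e-04). Of 12 genes of heme synthesis and breakdown and P450 reduction only Blvrb passed, where 0.373% of all genes did in either direction.

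Other rises lay outside the detoxification sets. App, the amyloid precursor protein, rose on 2 of its 3 probe sets (0.31 ± 0.05 and 0.41 ± 0.07, limma adjusted p = 0.00233 and 0.00342), and the third had 0.25 ± 0.12 (adjusted p = 0.589). Car2, a carbonic anhydrase, rose by 0.44 ± 0.09 (adjusted p = 0.0284), Zdhhc2, a palmitoyltransferase, by 0.45 ± 0.08 (adjusted p = 0.0109), and P2ry2, a nucleotide receptor, by 0.40 ± 0.09 (adjusted p = 0.0433). Cryl1, an L-gulonate dehydrogenase, rose by 0.39 ± 0.08 (adjusted p = 0.0184), Ddc, the aromatic amino acid decarboxylase, by 0.34 ± 0.07 (adjusted p = 0.0284), and Lrrc51 by 0.37 ± 0.07 (adjusted p = 0.0148). Second probe sets of some of these genes did not pass: that of Ddc had 0.07 ± 0.06 (adjusted p = 0.810), that of Car2 0.20 ± 0.07 (adjusted p = 0.313) and that of Lrrc51 0.17 ± 0.09 (adjusted p = 0.634). The P2ry2 call held in 6 of 30 fits with 1 sample left out, those of Zdhhc2, Cryl1, Lrrc51 and App in all 30.

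Cyp4a8, a fatty acid hydroxylase, rose on its representative probe set by 0.29 ± 0.06 and on a second by 0.55 ± 0.11 (limma adjusted p = 0.0251 and 0.0224). Both probe sets were dim, with low-dose means of 5.02 and 4.66, where the lowest array median was 5.06. Cyp4a8 was the only 1 of 25 measured PPAR-alpha targets to pass, where 0.373% of all genes passed in either direction. The median of these targets was -0.03 with 6 above 0, where 51.9% of all genes were above 0. Cyp4a1, the usual marker of PPAR-alpha, differed by -0.10 ± 0.11 (adjusted p = 0.856), and Fgf21, a hormone of fasting, by -0.77 ± 0.39 (adjusted p = 0.613). Cyp1a1 and Cyp1a2, the readouts of the dioxin receptor AhR, differed by 0.32 ± 0.09 and 0.03 ± 0.03 (adjusted p = 0.197 and 0.903). None of 7 AhR targets passed in the fit of all 30 samples, and 7 genes are too few to tell from the 0.373% of all genes.

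All 30 measured proteasome subunits had a difference above 0, where 51.9% of all genes did, but their median was 0.07. Only Psmd1 passed (0.18 ± 0.04, limma adjusted p = 0.0445), where 0.373% of all genes did in either direction. Psmd1 passed in 8 of 30 fits with 1 sample left out. Subunits of 1 complex in the same samples are not independent of each other. Among 20 genes of cholesterol synthesis and uptake 16 were above 0, with a median of 0.08 and none past the FDR; the smallest p was that of Pmvk (0.13, adjusted p = 0.514).

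Of 13 genes known as higher in female rat liver 11 were above 0 in these males, where 51.9% of all genes were. Their median was 0.12, against 0.0029 over all genes. Only Abcc3, which is also a CAR and PXR target, passed, where 0.373% of all genes did in either direction. Cyp2c12, a female-specific P450, differed by 0.51 ± 0.13 (limma adjusted p = 0.0937) and Cyp3a9 by 0.36 (adjusted p = 0.720). The Cyp2c12 probe set was bright in these males, with means of 11.35 at the low doses and 11.32 in vehicle. Whether it also reads other CYP2C genes was not tested. Of 12 genes known as higher in male liver none passed, and their median was -0.01.

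Gnmt, the glycine N-methyltransferase that uses up S-adenosylmethionine, was the fall with the smallest p. Its values were 11.50, 11.96 and 12.12 at the low doses, 11.20, 11.46 and 11.68 at 54.1 mg/kg and 11.31, 11.39 and 11.64 at 541 mg/kg. All 12 high-dose samples lay below the low-dose mean, 7 of them below every low-dose sample, and the overlap came from 2 low-dose samples. Gnmt fell by 0.47 ± 0.06 on the log2 scale, a 1.38-fold fall (limma adjusted p = 1.84e-04). Vehicle, whose lowest sample was 11.81, lay above all 12 high-dose samples. Gnmt was the only 1 of 16 genes of the methionine cycle and one-carbon metabolism to pass, where 0.373% of all genes did in either direction. The median of the 16 was -0.0032, against 0.0029 over all genes.

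Hacl1 and Phyh, which act in the peroxisomal alpha-oxidation of phytanic acid, both fell. Phyh had 12.63, 12.83 and 13.04 at the low and 12.40, 12.60 and 12.75 at the high doses, a difference of -0.23 ± 0.05 (limma adjusted p = 0.0251). A second Phyh probe set had -0.13 (adjusted p = 0.184). Hacl1 had 10.10, 10.52 and 11.23 at the low and 9.80, 10.13 and 10.49 at the high doses, a difference of -0.41 ± 0.09 (adjusted p = 0.0492), which passed in only 5 of 30 fits with 1 sample left out. For Hacl1 the low doses themselves differed from vehicle by -0.29 (limma unadjusted p = 0.0344, not past the FDR).

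Klf9, a transcription factor that thyroid hormone and glucocorticoids induce, had 9.46, 9.95 and 10.34 at the low and 9.28, 9.54 and 9.85 at the high doses. It fell by 0.38 ± 0.08 (limma adjusted p = 0.0296), with all 12 high-dose samples below the low-dose mean. A second Klf9 probe set had a difference of -0.38 and a dim one of -0.08, neither past the FDR. The low doses differed from vehicle by -0.31 in Klf9 (limma unadjusted p = 0.00793). The fall of Klf9 was lost without 541 mg/kg replicate 1 or 4 or without 54.1 mg/kg replicate 2, 3 or 4.

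Ccn2, a matricellular protein tied to scarring, showed the largest fall among the probe sets that passed. It had 5.62, 6.31 and 7.29 at the low and 5.43, 5.78 and 6.21 at the high doses, a difference of -0.52 ± 0.11 (limma adjusted p = 0.0437). The low-dose samples were 0.20 above vehicle, the high-dose samples differed from vehicle by -0.32, and the call held in 10 of 30 fits with 1 sample left out. In whole liver, fewer cells of a type and less RNA per cell cannot be told apart. Beside Ccn2, the markers of stellate cells and fibroblasts (15 measured) had a mean level of 6.75 to 7.56 in the low-dose and 6.67 to 7.41 in the high-dose samples. Where 0.373% of all genes passed and 51.9% were above 0, none of the 15 passed, 11 were below 0 and their median was -0.08. Their part in the Ccn2 result was not tested.

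Glud1, the mitochondrial glutamate dehydrogenase, fell on 2 probe sets (-0.15 ± 0.03 and -0.16 ± 0.04, limma adjusted p = 0.0321 and 0.0472), and the low doses differed from vehicle by -0.09 on both. Among 25 genes of the urea cycle and amino acid breakdown, Glud1 fell, Ddc rose and 19 were below 0, with a median of -0.05. Of all genes 0.373% passed in either direction and 51.9% were above 0. Ass1, the argininosuccinate synthetase, differed by -0.22 ± 0.06 (adjusted p = 0.123) and Tat, the tyrosine aminotransferase, by -0.33 ± 0.14 (adjusted p = 0.509). Ang and Rnase4, secreted ribonucleases that are transcribed from a shared locus, fell by 0.14 ± 0.03 and 0.18 ± 0.04 on the log2 scale (adjusted p = 0.0416 and 0.0409). The fall in Rnase4 was on a second probe set; its brightest, the representative, had -0.10 (adjusted p = 0.151).

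The other falls were in Oaf (-0.31 ± 0.07, limma adjusted p = 0.0375), Dexi (-0.28 ± 0.06, adjusted p = 0.0437), Atrn (-0.24 ± 0.05, adjusted p = 0.0302) and Atoh8 (-0.21 ± 0.04, adjusted p = 0.0320). A second Atrn probe set, at a low-dose mean of 9.80 nearly as bright, had -0.01 ± 0.05 (adjusted p = 0.971). On the Atrn probe set that fell, the low doses differed from vehicle by -0.15. In Atoh8, a helix-loop-helix factor, 8 of 12 high-dose samples lay below every low-dose sample. At the threshold itself, Hacl1 and Vav2 were just inside (adjusted p = 0.0492), and Atl3 (0.14, adjusted p = 0.0510), Rcl1 (-0.12) and Rbm17 (-0.24, both adjusted p = 0.0526) just outside.

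Other pathways had no member past the FDR, or only those already given. Of all genes 0.373% passed in either direction and 51.9% were above 0. Crem, a transcription factor of the cAMP response, had the smallest p among immediate early and cAMP genes, at -0.23 ± 0.05 (limma adjusted p = 0.0588), with all 12 high-dose samples below the low-dose mean; 4 of 13 measured genes of that set were above 0 and the median was -0.12. Id1, a target of BMP signalling in the set of iron genes, differed by -0.38 ± 0.09 (adjusted p = 0.0785), and Hexim1, an inhibitor of transcription elongation, by -0.17 ± 0.05 (adjusted p = 0.159). Crem passed when 0.05 mg/kg replicate 1, 0.54 mg/kg replicate 3 or 5.41 mg/kg replicate 3 was dropped, and Id1 when 54.1 mg/kg replicate 1 was. Fasn, the fatty acid synthase, differed by 0.28 ± 0.07 (adjusted p = 0.105) in a set of 19 with a median of 0.06, and passed when 5.41 mg/kg replicate 3 was dropped. Cyp7a1, the first enzyme on the classic route from cholesterol to bile acids, differed by 0.49 ± 0.28 (adjusted p = 0.666). Of 19 lipoprotein and lipid transport genes 2 were above 0, with a median of -0.05, and Apoa5 had the smallest p (-0.12 ± 0.04, adjusted p = 0.347). Herpud1, of the unfolded protein response, differed by -0.23 ± 0.07 (adjusted p = 0.197), Ccnd1, cyclin D1, by -0.40 ± 0.13 (adjusted p = 0.268), and Nr1d2, a clock repressor, by -0.32 ± 0.12 (adjusted p = 0.411).

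**Figure D4:**
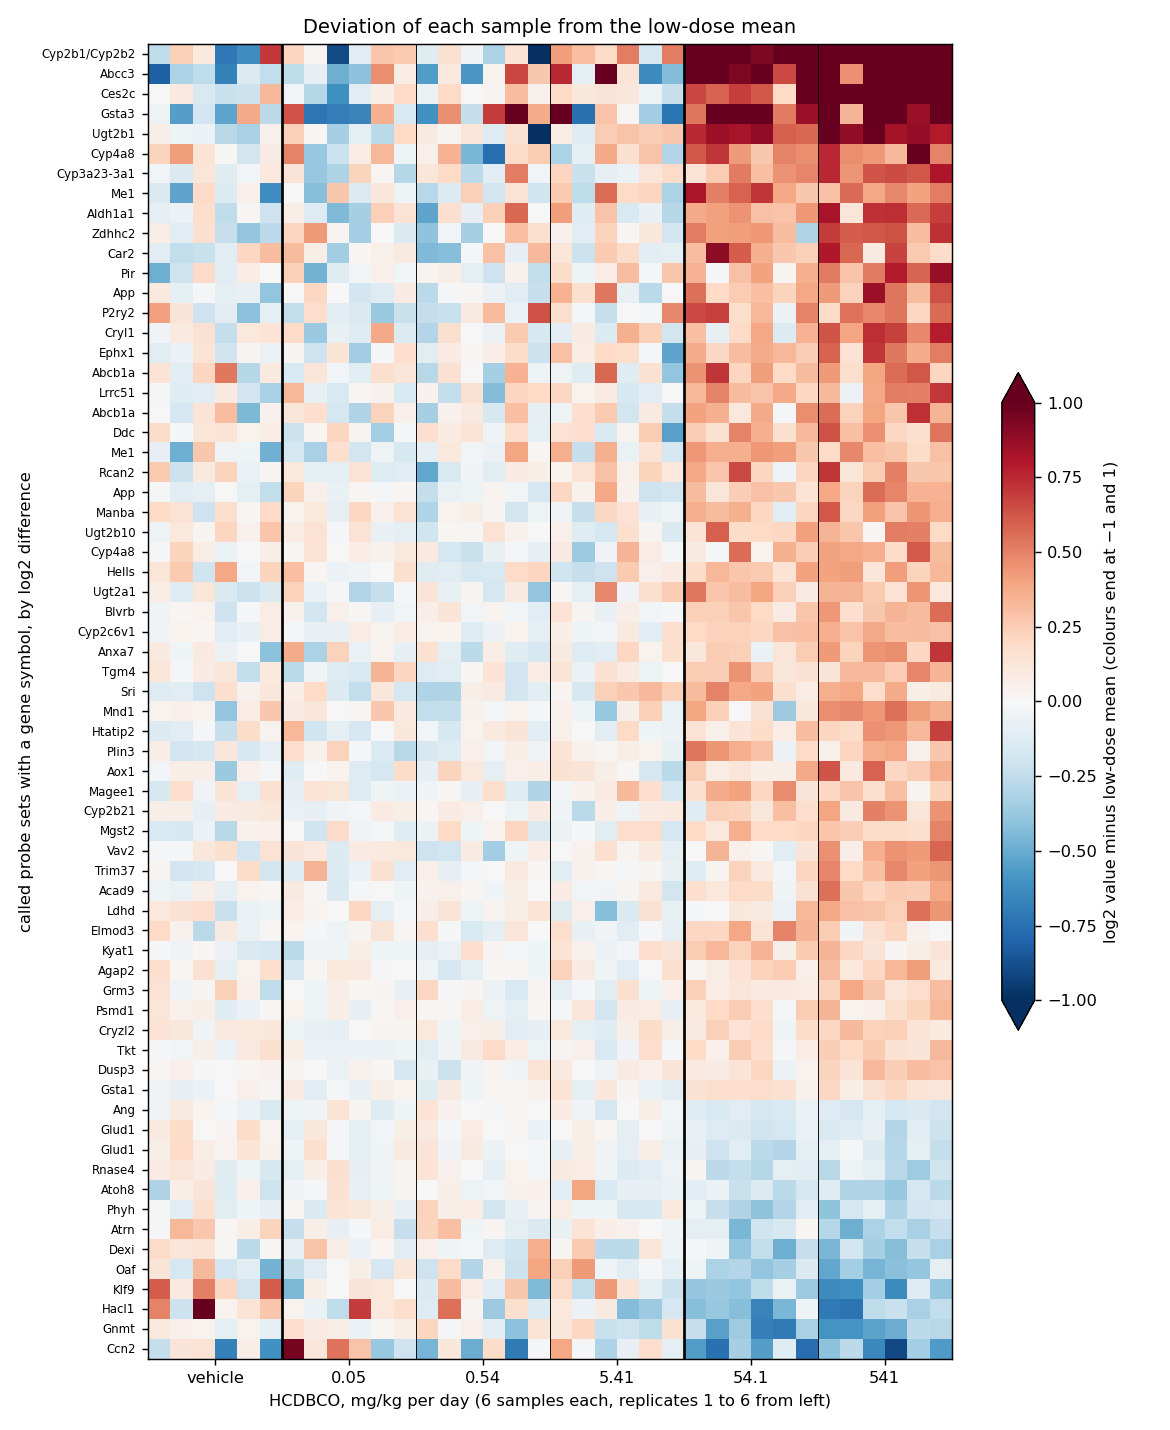
Deviation of each sample's log2 value from the mean of the 18 low-dose samples (colour, ending at −1 and 1) for the probe sets that passed and carry a gene symbol (y), with samples in columns by group and replicate (x). In the 12 columns at the right most cells of the rises are red and of the falls blue, and 54.1 mg/kg replicate 5 and 541 mg/kg replicate 2 are the palest of their groups in the rises.

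Most rises were larger at 541 than at 54.1 mg/kg. Both high doses lay on the same side of the low-dose mean for all 60 rises and all 13 falls. These probe sets had passed on the mean of those same doses against the same low-dose samples. A shared side was therefore largely set by the selection and cannot show that each dose changed them. The difference 541 minus 54.1 mg/kg was above 0 for 48 of the 60, where 49.9% of all probe sets had it above 0, and 22 of the 60 had an unadjusted p below 0.05 for it, 21 of them with 541 higher. Of the 13 falls 10 were lower at 541 mg/kg, where 50.1% of all probe sets were below 0, and none had an unadjusted p below 0.05. No probe set passed the FDR for 541 against 54.1 mg/kg in limma; 1437 (4.63%) had an unadjusted p below 0.05, and the smallest adjusted p was 0.0684, for Ces2c.

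Set against the same low-dose samples, which both comparisons share, 541 mg/kg gave 73 probe sets past the FDR (0.235%), 59 higher (0.19%) and 14 lower (0.0451%), with 2432 (7.83%) at an unadjusted p below 0.05 in limma. At 54.1 mg/kg 7 passed (0.0226%), 6 higher (0.0193%) and 1 lower (0.00322%), with 1857 (5.98%) at an unadjusted p below 0.05. The 7 at 54.1 mg/kg were the Cyp2b probe set, Ces2c, Ugt2b1, Cyp2c6v1, Me1, Elmod3 and Gnmt. With 1 sample left out the count at 54.1 mg/kg was 3 to 8, falling to 4, 3, 4 and 4 without its replicates 1, 2, 3 and 4. The count at 541 mg/kg was 31 to 83, falling to 31, 47, 33, 35 and 38 without its replicates 1, 3, 4, 5 and 6, and to 43 without 0.54 mg/kg replicate 1.

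Side by side, the differences from the low doses at 541 and 54.1 mg/kg were 2.10 and 1.13 for the Cyp2b probe set, 1.47 ± 0.11 and 0.66 ± 0.11 for Ces2c, 1.74 ± 0.24 and 1.12 ± 0.24 for Abcc3, and 0.65 and 0.36 for Cyp3a23-3a1. The difference between the doses was 0.82 ± 0.14 for Ces2c and 0.98 ± 0.20 for the Cyp2b probe set (limma adjusted p = 0.0684 and 0.527). For Ugt2b1 (0.91 and 0.75), Gsta3 (1.14 and 0.88) and Cyp2c6v1 (0.32 and 0.24) the doses were closer. Cryl1 (0.62 and 0.17), Trim37 (0.39 and 0.07), Vav2 (0.39 and 0.07), Mnd1 (0.45 and 0.09) and Ldhd (0.36 and 0.08) lay near the low doses at 54.1 mg/kg. For Vav2 and Trim37 the brightest probe set did not pass in the pooled contrast (0.15 and 0.17, limma adjusted p = 0.290 and 0.286). Me1 was the other way, at 0.44 and 0.55 on the probe set called at 54.1 mg/kg, and Elmod3 stood at 0.11 and 0.29. That Elmod3 probe set is not the brightest of its gene. Its call in the pooled contrast held in 13 of 30 fits with 1 sample left out. Gnmt (-0.46 and -0.47), Ccn2 (-0.52 and -0.51), Hacl1 (-0.42 and -0.40) and Phyh (-0.22 and -0.23) had almost the same difference at both doses. None of these differences between doses passed the FDR.

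**Figure D5:**
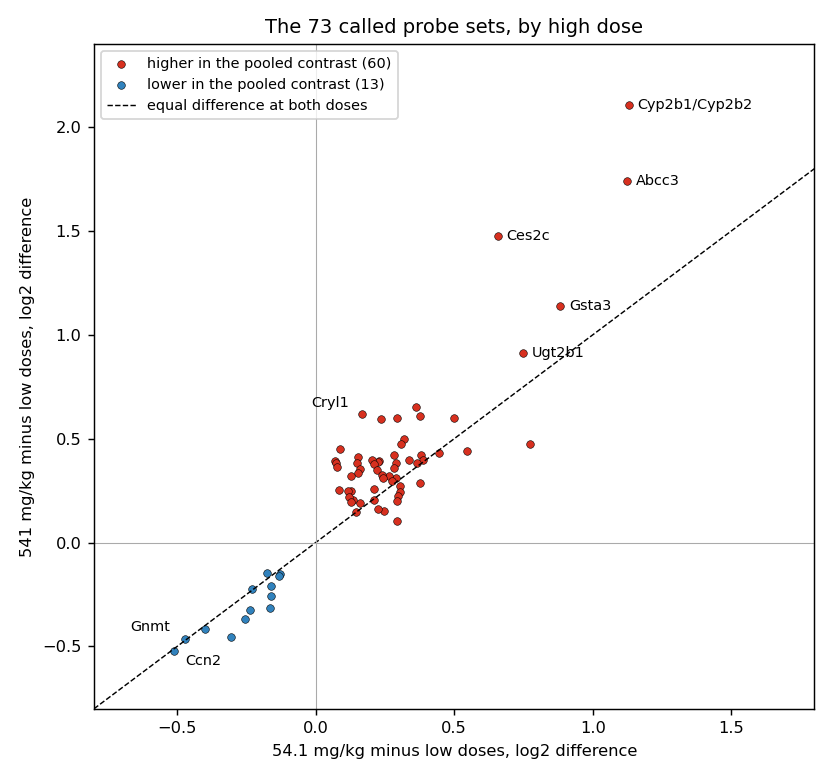
Log2 difference from the low doses at 54.1 mg/kg (x) and at 541 mg/kg (y) for the 73 probe sets that passed in the pooled contrast; the dashed line marks equal differences. Both axes share the 18 low-dose samples; 48 of the 60 rises lie above the line.

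Some genes passed at 541 mg/kg without passing in the pooled contrast, and they are given here after their values were seen. Cpt1a, the carnitine palmitoyltransferase that admits fatty acids to mitochondria, differed from the low doses by -0.53 at 541 mg/kg (limma adjusted p = 0.0157) and by -0.04 at 54.1 mg/kg. Mmgt1 was 0.49 above at 541 mg/kg (adjusted p = 0.00449) and 0.07 above at 54.1 mg/kg on its representative probe set. Casp4, an inflammatory caspase, was 0.57 and 0.05 above (adjusted p = 0.0367 at 541 mg/kg), and Akr1c15, an aldo-keto reductase, differed by -0.39 at 541 mg/kg (adjusted p = 0.0137) and by 0.01 at 54.1 mg/kg.

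Within each high dose, 1 sample showed the weakest rises. Over the 60 rises, 541 mg/kg replicate 2 was the lowest of its 6 samples in 30 and 54.1 mg/kg replicate 5 in 27. Their mean deviations from the low-dose mean over the 60 were 0.31 and 0.19, where the 5 others of each group had 0.41 to 0.53 and 0.30 to 0.35. Over the 13 falls they did not stand apart, at -0.31 and -0.28 in groups of -0.39 to -0.24 and -0.34 to -0.17. The second of them is the array whose distribution stood apart. Without it 75 probe sets were higher and 12 lower. Its part in the size of the rises at 54.1 mg/kg was not tested beyond that.

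The low doses did not separate from each other or from vehicle at this number of samples. No probe set passed limma's F-test of any difference among 0.05, 0.54 and 5.41 mg/kg (914, or 2.94%, had an unadjusted p below 0.05), and none passed for the low doses against vehicle (1312, or 4.23%). For the 60 rises the low doses were a median of 0.02 above vehicle, and for the 13 falls the median was -0.0044. The vehicle mean was nearer to the low-dose than to the high-dose mean in 59 of 60 rises and 13 of 13 falls; the exception was Cryzl2. None of the rises and 5 of the falls (Klf9, Hacl1, Atrn and both Glud1 probe sets) had an unadjusted p below 0.05 between low doses and vehicle. In the Cyp2b probe set the group medians were 10.96 in vehicle and 11.16, 10.96 and 11.40 from the lowest to the highest of the 3 low doses. Its limma F-test among the low doses had an unadjusted p of 0.0329, not past the FDR. Of the 73 probe sets that passed in the pooled contrast, 2 had an unadjusted p below 0.05 in that F-test.

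Genes that mark cell types and liver zones did not pass on their representative probe sets in the pooled contrast. Across 13 such sets no member passed there, where 0.373% of all genes did in either direction. With so small a share, the lack of calls does not set the markers apart from other genes. Rnase4, a pericentral marker, passed on its second probe set (-0.18, limma adjusted p = 0.0409). Hepatocyte markers had a median of -0.02 with 2 of 14 above 0, sinusoidal endothelial markers -0.05 with 2 of 12, and Kupffer cell and macrophage markers -0.10 with 2 of 12. Of all genes 51.9% were above 0. The mean level of the Kupffer cell set was 8.44 to 9.25 in the low-dose and 8.34 to 9.16 in the high-dose samples. That of the T and NK cell set was 4.77 to 5.23 and 4.79 to 5.06. Of the 15 stellate cell and fibroblast markers 11 were below 0, with a median of -0.08. Rgs5, a pericyte gene, went against most of that set and had its smallest p, at 0.32 ± 0.08 (limma adjusted p = 0.104). It passed in that contrast without 541 mg/kg replicate 1, and it was 0.47 ± 0.10 higher at 541 mg/kg than at the low doses (adjusted p = 0.0414), against 0.17 at 54.1 mg/kg.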

How the data were processed

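Liver RNA was measured in 36 samples, 1 Affymetrix array each. The deposited values are log2 expression levels per probe set, made by the authors with RMA in the affy package, per the submitters' processing notes; RMA sets all arrays to 1 distribution of probe signals, so a shift shared by all genes cannot be seen. Arrays give no counts, and the number of samples limits precision.

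Leaving out 57 control probe sets, 31042 were fitted with limma 3.58.1 in R 4.3.3, with no filter or further normalization, as 5 dose means over 30 samples; the low doses were set against vehicle in a fit of 6 means over 36 samples. Benjamini-Hochberg adjustment ran over all 31042, at an FDR of 5%. The platform's annotation gave 1 symbol to 20826 probe sets, several to 436 and none to 9780; 20758 had an Entrez ID in RefSeq. The probe set with the highest mean stood for each of 14217 genes. Genes named were the 15 largest rises and falls that passed, up to 3 called members (or the 1 with the smallest p) of each gene set, and 15 given genes; any other was chosen after its values were seen. The samples compared and the gene sets were chosen with earlier results of these data known.

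The labels name no animals and no extraction or scan batch, so a p-value reflects only how these samples vary, which may in part be technical. Data were simulated for the high-against-low comparison over 31042 probe sets, with 200 changed per round. The fit recovered 70.4% of changes of 0.25, 97.6% of 0.5 and 98.8% of 1 on the log2 scale, with 5.56% of calls false. The simulated noise was normal and independent, and each change was equal at both high doses. Neither correlated genes nor outlying samples were simulated, so these shares need not hold for the real samples. Alternatives were other normalizations, filters, variance models and baselines, a replicate block, and leaving out samples or dose groups.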

Additional observations from a re-analysis of the deposited data

Results flagged for a closer look

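Among 444 sets of 6 samples examined (74 genes or probe sets in 6 groups), 25 had 1 sample far from the 5 others, by the size of its gap to the nearest sample as a share of the whole range (Dixon's critical value). Chance alone marks about 1 in 20 such groups. Several lie in genes that rose. In the Cyp2b probe set, 0.05 mg/kg replicate 3 was low at 10.15 (others 10.94 to 11.32), 0.54 mg/kg replicate 6 at 9.679 (others 10.73 to 11.2), and 541 mg/kg replicate 2 at 12.52 (others 13.15 to 13.47). The low sample of 0.54 mg/kg in Ugt2b1, replicate 6, was at 11.17 (others 12.05 to 12.33). In Ephx1, 5.41 mg/kg replicate 6 was at 12.01 (others 12.52 to 12.82), and in Aldh1a1, 541 mg/kg replicate 2 was at 11.88. Zdhhc2 was low in 54.1 mg/kg replicate 6, at 6.014, and in 541 mg/kg replicate 5, at 6.623. Gsta1 was low in 54.1 mg/kg replicate 6, at 12.98, Mgst2 high in 541 mg/kg replicate 6, at 11.68, and Tkt high in 0.05 mg/kg replicate 1, at 10.82.

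Among the genes that fell, Klf9 was low in 0.05 mg/kg replicate 1, at 9.462 (others 9.913 to 10.04), Atoh8 high in 5.41 mg/kg replicate 2, at 8.624, and Atrn low in 541 mg/kg replicate 2, at 9.607.

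The others are in genes without a call. Nqo1 stood at 9.588 in 0.05 mg/kg replicate 5, where the 5 others had 7.11 to 7.7. That gap was the widest of the 25 in log2 units, though not as a share of the range. Akr7a3 stood at 11.8 in 5.41 mg/kg replicate 4 (others 10.7 to 11.04). Cyp3a2 was low in 0.05 mg/kg replicate 3, at 13.68, and in 0.54 mg/kg replicate 3, at 13.69, and Crem in 54.1 mg/kg replicate 1, at 9.715. Of cell type markers, Cfd, a fat cell gene, was high in 0.54 mg/kg replicate 4, at 8.14, and in 5.41 mg/kg replicate 1, at 8.343. Epcam, a bile duct gene, was high in 0.54 mg/kg replicate 4, at 9.388 (others 8.533 to 8.744), and the globin gene Hbb low in 54.1 mg/kg replicate 6, at 11.8. Blk, a B cell gene, was low in vehicle replicate 4, at 4.113, and in 541 mg/kg replicate 2, at 4.194.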

How the results depend on the processing

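The number of probe sets past the FDR in the high against the low doses was 73. It was 127 (98 higher, 29 lower) with array quality weights, 172 (113 higher, 59 lower) with vehicle added to the low-dose baseline, and 24, 22 and 40 without the 0.05, 0.54 and 5.41 mg/kg groups, fits with fewer samples. It lay between 60 and 103 with a filter on dim probe sets, median centring, quantile normalization, 2 means, all 36 samples in the fit, or a trended robust variance, and between 28 and 87 with 1 sample left out. Weights gave 15 at 54.1 mg/kg, where 7 passed; with 1 sample left out the count was 3 to 8 there and 31 to 83 at 541 mg/kg. For 541 against 54.1 mg/kg quantile normalization gave 1 where none had passed, and 1 sample left out gave 0 to 1, with 1 when 54.1 mg/kg replicate 6 or 541 mg/kg replicate 2 was dropped. The causes were not tested beyond the fewer samples. The low doses, among themselves and against vehicle, gave 0 in every alternative run. With the replicate number as a block (replicate block), 61 passed for the high doses, 54 of them among the 73, 55 at 541 mg/kg and 9 at 54.1 mg/kg. Same-numbered samples showed little shared deviation (mean r = 0.0189 over 60 pairs of samples, -0.26 to 0.233, 18 over 0.1). Over 300 other pairs the mean was -0.0037. Of 30 samples 6 correlated best with their own number. The labels do not say what the number stands for, and shared handling that touches only some genes was not tested. Over 1058 comparisons of a named gene with an alternative, 938 kept direction and side of the threshold, 98 lost the call, 22 gained it and 0 changed direction. Of the 73, 12 passed in every alternative other than leaving out samples in which they were tested. RMA values carry no detection call, so how far dim probe sets such as Cyp2b21 lie above background was not measured.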

Other observations

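Among probe sets that did not pass, 31 differed by more than 0.5 on the log2 scale, 11 higher and 20 lower at the high doses; those given here were picked after their values were seen. A probe set with no symbol had the largest, 1.81 ± 0.54 (limma adjusted p = 0.227), with an SD of 2.36 over the 12 high-dose samples and 0.99 over the 18 low-dose samples, and it was 2.88 above the low doses at 541 mg/kg and 0.74 above at 54.1 mg/kg. Abhd3 differed by 1.48 ± 0.67 (adjusted p = 0.542), with an SD of 2.298 over the high-dose and 1.67 over the low-dose samples. Ubd, a ubiquitin-like gene, differed by -1.41 ± 0.50 between the high and the low doses (limma adjusted p = 0.365), with an SD of 1.61 over the 12 high-dose and 1.43 over the 18 low-dose samples. Scd, the stearoyl-CoA desaturase, differed by -0.86 ± 0.27 (adjusted p = 0.269), with an SD of 0.98 over the 12 high-dose samples.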
